A study of Mus musculus with 8 samples.

Results

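miR-210 is the microRNA (miRNA) most closely tied to low oxygen, and its level was followed here across kidneys with and without a blocked ureter. It was taken as every probe that the scanner files name mmu-miR-210, which is 1 of the 611 mouse miRNAs and 2 of the 1759 mouse miRNA probes measured. Each of the 8 arrays carried 20 spots for it, 10 per probe. The group called UUO, for unilateral ureteral obstruction, held 4 kidneys whose ureter had been tied off 7 days earlier, in mice of the outbred ICR strain. The control group held 4 contralateral kidneys without obstruction from ICR mice of the same procedure, so both groups shared the anaesthesia, the surgery and the 7 days, and no unoperated or sham kidney was analysed here. The labels give no age or sex and do not say which kidneys came from the same mouse. Whole-kidney RNA was measured, so more cells of a type and more RNA per cell cannot be told apart.

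As background, cells short of oxygen stabilise hypoxia-inducible factor (HIF), a transcription factor that binds upstream of the miR-210 gene and raises its transcription. The mature miRNA is loaded into Argonaute proteins and represses messenger RNAs that pair with its seed, among them, in human and rodent cells, those of the iron-sulfur cluster scaffold ISCU, the cytochrome c oxidase assembly factor COX10 and ephrin-A3. Through such targets it is known for lowering mitochondrial respiration and for effects on cell survival and vessel growth. In the kidney, oxygen tension is low in the medulla, and in humans high miR-210 is well known in clear cell kidney tumours that have lost VHL, the factor that marks HIF for degradation.

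The sequences of miR-210, from RefSeq on GRCm38.p6, show what the probes were named for. The gene Mir210 lies at chr7:141221384-141221493 on the minus strand, between Rassf7, 2726 bases away, and Gm51460, 6713 bases away, and RefSeq places it inside neither. In the first 2 lines the capitals mark the seed, bases 2 to 8 from the 5′ end, and in the hairpin they mark the 3p arm.
miR-210-3p: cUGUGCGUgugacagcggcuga
miR-210-5p: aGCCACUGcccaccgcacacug
Mir210 hairpin: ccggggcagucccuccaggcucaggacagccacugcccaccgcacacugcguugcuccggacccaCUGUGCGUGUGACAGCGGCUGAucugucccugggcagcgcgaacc
The array's name predates the arm suffixes, and in that naming an unmarked miR-210 stands for the 3p arm. The match rests on the name, since probe sequences were not used here. The 3p arm has 22 bases at chr7:141221407-141221428, of which 63.6% are G or C, above the median of 52.2% over the 1738 mature mouse miRNAs in RefSeq. No other entry among these 1738 shares its seed.

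The arrays as a whole set the limits of the comparison. All 8 lay on 1 slide with 1 scan, and the 75th percentile signal ranged from 514 to 1595 on UUO arrays and from 417 to 582 on control arrays. Levels below are sums of the probe signals divided by that percentile, taken over the 371 probes well above background on every array, so each is relative to the brighter miRNAs of its own array. Tubule markers were present, with 6 of 7 detected and miR-215 not well above background on any array, and of the brain, liver and pancreas markers miR-124 and miR-122 were detected on none, miR-9 on all 8, and miR-375 on 3 UUO and 2 control arrays. UUO kidney 2 stood apart from its group. Across the 222 tested miRNAs its mean correlation was 0.887 with the other UUO arrays and 0.964 with the control arrays, and values are given with and without it where it matters.

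miR-210 stood high in a single obstructed kidney. Its level was 0.0987, 0.251, 0.116 and 1.34 in UUO kidneys 1 to 4, against 0.131, 0.210, 0.0926 and 0.0694 in control kidneys 1 to 4. UUO kidney 4 was 11.6-fold above the control mean (geometric), while UUO kidneys 1 and 3 lay inside the control range and UUO kidney 2 lay just above the highest control kidney. The groups therefore overlapped, and the 4 UUO kidneys did not share one shift of miR-210.

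**Figure D1:**
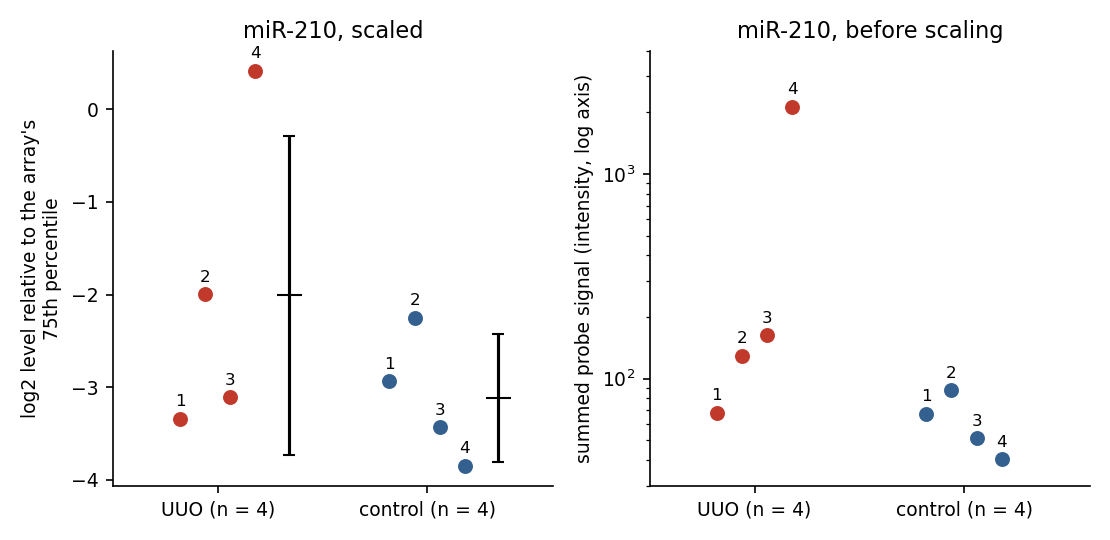
Level of miR-210 in each kidney (numbered points), scaled on a log2 axis at left with the mean and SD of each group, and as summed probe signal before scaling on a log axis at right. UUO kidney 4 lies at 0.42 on the log2 scale, and the other 7 kidneys lie between -3.85 and -1.99.

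On the log2 scale miR-210 averaged -2.01 ± 1.72 in UUO kidneys and -3.12 ± 0.69 in control kidneys (SD, n = 4 each). The change was 1.11 ± 0.81 (SE), or 2.16-fold with a 95% interval of 0.591-fold to 7.88-fold, and it did not pass the test (limma adjusted p = 0.337 over 222 miRNAs). An exact permutation test over all 70 assignments of the arrays gave p = 0.286, two-sided, where 0.0286 is the smallest this design allows. By the same limma call, an adjusted p under 0.05, 14.9% of the tested miRNAs differed, and miR-210 ranked 137th by p although its change was the 14th highest. The interval includes no change, so these 8 arrays do not fix a size for the response of miR-210.

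The mean difference rested on UUO kidney 4. Without it the change was 0.30 ± 0.47 (SE, n = 3 and 4), or 1.23-fold with a 95% interval of 0.570-fold to 2.67-fold (limma adjusted p = 0.686). Without UUO kidney 2 it was 1.11 ± 0.94 (limma adjusted p = 0.360), and without both it turned to -0.11 ± 0.44 (SE, n = 2 and 4; limma adjusted p = 0.841). Both arrays were picked on their values. The slide rows differed in the same way: within row 1, which held kidneys 1 and 2 of both groups, the change was -0.076, and within row 2, which held kidneys 3 and 4, it was 2.30 (2 against 2 arrays each, limma adjusted p = 0.961 and 0.258). UUO kidney 3 shared row 2 with UUO kidney 4, and its miR-210 level of 0.116 lay inside the control range. The part of the slide row in the miR-210 level was not tested.

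The high value was present in every spot. On UUO kidney 4 the 10 spots of probe A_54_P1443 read between 1201 and 1502 and the 10 spots of probe A_54_P1444 between 634 and 847. The lowest of these spots was 10.02-fold and 9.95-fold above the highest spot of the same probe on any of the other 7 arrays, at 120 and 63.7. The 20 spots were spread over the array, with 4 to 6 in each of 4 equal rectangles of it, and none was marked as an outlier or saturated.

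**Figure D2:**
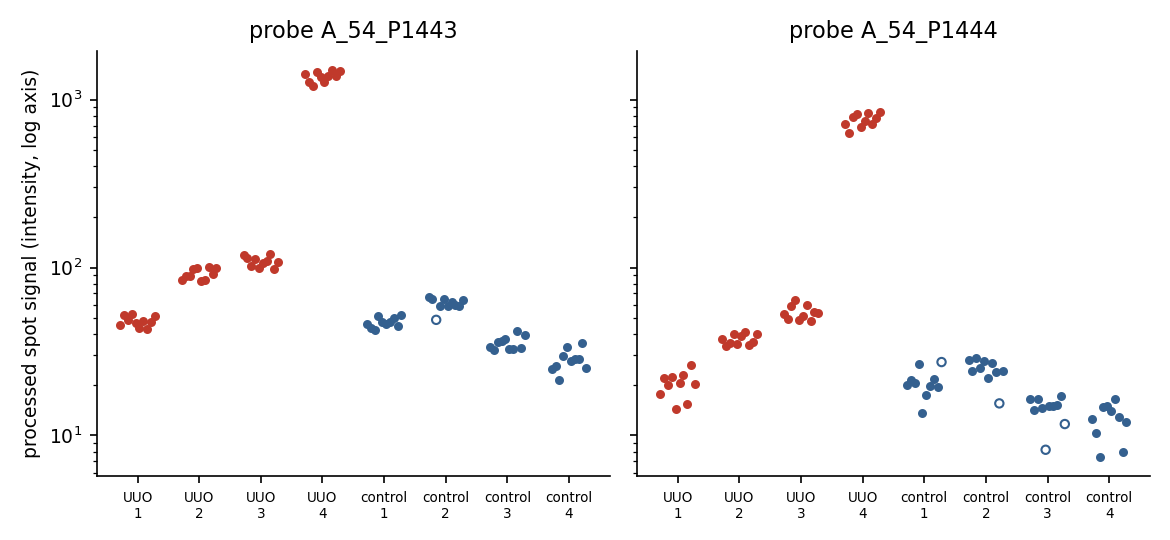
Processed signal of every miR-210 spot (log axis) by array for each of the 2 probes, with open circles for spots marked as outliers. All 20 spots of UUO kidney 4 lie above all spots of the other 7 arrays for the same probe.

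Both probes gave the same order at the top. Averaged over its spots, probe A_54_P1443 read 47.9, 91.8, 109 and 1375 in UUO kidneys 1 to 4, against 47.2, 62.1, 35.6 and 28.1 in control kidneys 1 to 4. Probe A_54_P1444 read 20.09, 37.3, 54.0 and 757 in UUO kidneys 1 to 4, against 20.01, 25.7, 15.5 and 12.3 in control kidneys 1 to 4. Before scaling, UUO kidneys 2, 3 and 4 thus exceeded all control kidneys, and UUO kidney 1 did not. The coefficient of variation between spots was 4.85% to 15.0% for the first probe and 6.90% to 24.3% for the second. This spread was small beside the excess of UUO kidney 4, but not beside the differences between UUO kidney 1 and control kidney 1. The first probe was well above background on all 8 arrays and the second on 7, the exception being control kidney 4, where 5 of 10 spots carried that mark. Taken alone, the first probe gave a log2 change of 1.07 ± 0.79 and the second of 1.19 ± 0.84 (SE, n = 4 each; limma adjusted p = 0.348 and 0.321). The ratio of the first probe to the second was 1.82 on UUO kidney 4, 2.01 on UUO kidney 3 and between 2.28 and 2.46 on the other 6 arrays, so the probes were not strictly proportional over the range.

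Array brightness also differed, and it moved with part of the unscaled signal. UUO kidneys 3 and 4 were the 2 brightest arrays, with 75th percentiles of 1403 and 1595 and with 288 and 310 miRNAs detected, against 250 and 243 on UUO kidneys 1 and 2 and 228 to 240 on control arrays. The scaled miR-210 level of UUO kidney 4 was 11.5-fold that of UUO kidney 3. The part of array brightness in the miR-210 level was not tested. Without any scaling the change of miR-210 was 1.99 ± 0.77 (SE, n = 4 each; limma adjusted p = 0.113). The median of all tested miRNAs moved by 0.88 on the log2 scale in that setting, from -0.14 with scaling. Dividing an array by a single factor shifts all its miRNAs above the floor alike. The distance of miR-210 from that median was therefore 1.25 in both by construction.

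How unusual a lone high array is can be read from the other miRNAs. For miR-210 the highest array exceeded the next by 2.41 on the log2 scale, or 5.33-fold, against a median of 0.14 over the 222 tested miRNAs. This gap was the second largest. It exceeded 1 for 6 miRNAs, or 2.7% of those tested, and in 5 of these the high array was UUO kidney 4. UUO kidney 4 was the highest of the 8 arrays for 35 miRNAs, or 15.8% of those tested, so it was not high throughout. The SD of miR-210 within UUO kidneys was the 7th largest of the 222 and its SD within control kidneys, 0.69 against a median of 0.21, the 23rd.

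**Figure D3:**
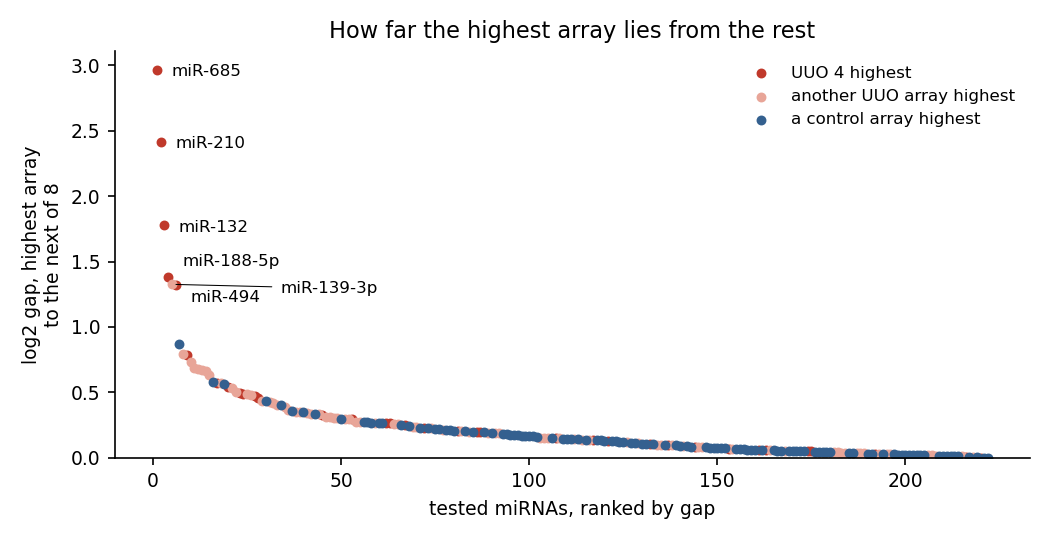
Log2 gap between the highest array and the next of the 8, for the 222 tested miRNAs ranked by that gap, coloured by which array is highest. miR-210, at 2.41, is second to miR-685, at 2.96, and 5 of the 6 miRNAs with a gap over 1 have UUO kidney 4 as the highest array.

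The other 4 miRNAs that shared this gap, chosen after their values were seen except where the rule for likeness below also names them, were miR-685, miR-132, miR-188-5p and miR-494. miR-685 was at -4.72, -3.78, -4.21 and -0.82 in UUO kidneys 1 to 4, against -4.48, -4.63, -5.56 and -4.77 in control kidneys 1 to 4, on the log2 scale. It was well above background on all 4 UUO arrays and on 1 of 4 control arrays, and its lowest control value is the common floor. miR-132, known as a miRNA induced by the transcription factor CREB, was at -1.20, -4.11, -1.83 and 0.57 in UUO kidneys 1 to 4, against -3.50, -3.82, -2.61 and -3.53 in control kidneys 1 to 4. Unlike miR-210, it was also above all control kidneys in UUO kidneys 1 and 3. None of the 4 passed the test between the groups (limma adjusted p from 0.144 to 0.856).

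The miRNAs whose pattern was most like that of miR-210 over the 8 arrays were ranked by Pearson correlation of log2 levels among the other 221 tested miRNAs. The closest was miR-685 (r = 0.94, Spearman rho = 0.88, n = 8 arrays), followed by miR-188-5p (r = 0.82, rho = 0.62), miR-714 (r = 0.80, rho = 0.48), miR-362-5p (r = 0.72, rho = 0.36) and miR-1224 (r = 0.69, rho = 0.45). All 5 were highest on UUO kidney 4. The opposite arms of miR-188-5p and miR-362-5p were not, with miR-188-3p highest on control kidney 1 and miR-362-3p on control kidney 2. miR-685 and miR-714 were tested because they were well above background on all 4 UUO arrays, and on control arrays they were so on only 1 and 2 of 4, so their likeness depends in part on that filter. Without UUO kidney 4 the correlations of all 5 with miR-210 were, in the same order, 0.63, 0.18, 0.53, 0.25 and 0.0072 (n = 7). Each was thus lower without that array, and the correlation of miR-1224 was near 0. The 5 were picked by correlations that include UUO kidney 4, which lies far from the other arrays in miR-210. Being highest there and losing correlation without it were therefore largely built into the choice. All arrays enter both levels of a pair, and no test was made of these correlations.

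Of these 5 miRNAs, 2 had a RefSeq mature sequence under exactly the array's name, shown here with their seeds in capitals to set them beside miR-210-3p.
miR-188-5p: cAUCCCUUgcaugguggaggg
miR-362-5p: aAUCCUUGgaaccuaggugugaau
Both lie on the X chromosome, at chrX:7248031-7248051 and chrX:7242019-7242042 on the minus strand of GRCm38.p6, and neither shares a seed with miR-210. miR-188-5p was at -1.78, -1.52, -1.81 and -0.13 in UUO kidneys 1 to 4, against -1.70, -2.65, -2.17 and -2.34 in control kidneys 1 to 4, on the log2 scale. Of the control kidneys, only control kidney 1 reached the range of the UUO kidneys.

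At the other end, the lowest correlations with miR-210 were those of miR-202-3p (r = -0.87), the muscle miRNA miR-1 (r = -0.84) and let-7f (r = -0.77), over the same 8 arrays. Without UUO kidney 4 these were -0.78, -0.81 and -0.65. miR-1 was at -4.53, -5.30, -4.78 and -5.55 in UUO kidneys 1 to 4, against -4.21, -4.82, -3.81 and -4.08 in control kidneys 1 to 4, on the log2 scale. In both groups it was lowest in the kidney with the most miR-210. Its value in UUO kidney 4 lay next to the common floor of -5.56, although miR-1 was well above background on all 8 arrays.

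Among the 7 arrays other than UUO kidney 4, the 2 with the most miR-210 were also the 2 with the most red blood cell miRNAs. The erythroid markers are miR-451 and miR-144, made from one cluster during red cell maturation, and miR-486. Their summed level was 7.58, 24.4, 5.16 and 6.15 in UUO kidneys 1 to 4, against 6.45, 44.6, 5.17 and 6.95 in control kidneys 1 to 4. UUO kidney 2 and control kidney 2 thus stood above the other 6 arrays, which ranged from 5.16 to 7.58. They were also the kidneys with the most miR-210 after UUO kidney 4, at 0.251 and 0.210, against 0.0694 to 0.131 in the 5 remaining. Among those 5 the most miR-210 was in control kidney 1 and the largest erythroid sum in UUO kidney 1. The part of red cells in the miR-210 level was not tested. UUO kidney 2 and control kidney 2 carry the same number. The labels do not say whether they came from 1 mouse, so they may not be separate cases. UUO kidney 4, with the most miR-210, had an erythroid sum of 6.15, inside the range of the other kidneys.

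**Figure D4:**
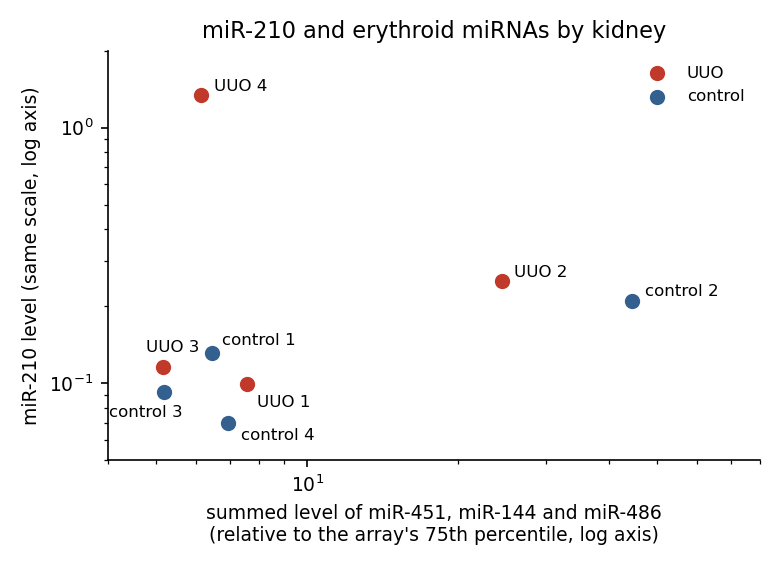
miR-210 level against the summed level of the erythroid miRNAs miR-451, miR-144 and miR-486 in each kidney, both relative to the array's 75th percentile and on log axes. UUO kidney 2 and control kidney 2 are high on both axes, and UUO kidney 4 is high in miR-210 with an erythroid sum of 6.15.

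The erythroid values of single miRNAs ran the same way. miR-451 was at 2.90, 4.59, 2.34 and 2.60 in UUO kidneys 1 to 4, against 2.66, 5.46, 2.35 and 2.78 in control kidneys 1 to 4, on the log2 scale. miR-144 was well above background only on UUO kidney 2 and control kidney 2. Leaving out both of those arrays, the change of miR-210 was 1.40 ± 1.05 (SE, n = 3 each; limma adjusted p = 0.318).

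Markers of other cells were also read in UUO kidney 4. Its summed leukocyte markers were 6.26, against 7.22, 1.80 and 6.99 in UUO kidneys 1 to 3 and 1.85 to 2.55 in control kidneys, and UUO kidneys 1 and 3 had a higher leukocyte sum with miR-210 inside the control range. Its kidney tubule markers summed to 25.1, the lowest of all arrays. The sum was 29.6, 36.0 and 27.8 in UUO kidneys 1 to 3 and 45.9 to 49.2 in control kidneys. UUO kidney 4 lay below all control kidneys in miR-192, miR-194, miR-30a and miR-10b. It lay inside the control range in miR-10a, at 3.14 on the log2 scale, and in miR-204, at -2.11. Its smooth muscle markers miR-143 and miR-145 summed to 1.95, the highest of all arrays, against 0.938 to 1.66 in the other UUO kidneys and 1.19 to 1.501 in control kidneys. Its summed endothelial markers, at 13.2, lay inside the control range of 12.1 to 15.2, a sum made up mostly of miR-126-3p. The dimmer marker miR-126-5p was at -3.22 on the log2 scale. That was below all control kidneys (-2.97 to -2.60) and above the other UUO kidneys (-3.88 to -3.63). The part of these cell types in the miR-210 level was not tested.

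The 20 other miRNAs described as induced by low oxygen, mostly in human cell lines, gave no lone peak in UUO kidney 4 of the size seen for miR-210. Of these 19 had a probe under the listed name and 18 were tested, and 3 of 18, or 16.7%, fell and 0 rose in UUO kidneys (limma adjusted p under 0.05), while 13.5% of all tested miRNAs fell and 1.35% rose. At an unadjusted p under 0.05 in either direction the list held 7 of 18, and all tested miRNAs held 81 of 222. Their median log2 change was 0.14 and that of all tested miRNAs -0.14. UUO kidney 4 was the highest array for 6 of the 18, against 35 of 222, or 15.8%, over all tested miRNAs. The largest excess over the next array in the list was 0.33, for miR-155, against 2.41 for miR-210.

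The members that fell were miR-192, a tubule miRNA, at -1.27 ± 0.26, miR-107, which in human cells is known to target the HIF partner ARNT, at -0.96 ± 0.18, and miR-26b at -0.72 ± 0.13 (log2 change ± SE, n = 4 each). Without scaling these changes were -0.39, -0.078 and 0.16, so miR-26b turned its direction. The brightest uncalled members were miR-21, with a log2 change of 0.81 ± 0.46, miR-26a, at -0.38 ± 0.11, and miR-23a, at 0.19 ± 0.15 (limma adjusted p = 0.234, 0.0621 and 0.393). The count depended on single kidneys. It was 0 without any one of UUO kidneys 1 and 3 or control kidneys 1, 3 and 4. In each of these settings the count over all 222 tested miRNAs was 0 as well. The list count was 3 without UUO kidney 4, where 14 of 222 were called, and 4 without control kidney 2, where 20 of 222 were. Without UUO kidney 2, 13 of 18 members passed, 7 higher and 6 lower, where 50.9% of all tested miRNAs did (20.7% higher and 30.2% lower), and miR-210 was still not among the calls (limma adjusted p = 0.360).

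Of 12 miRNAs known to act on HIF or its regulators, 10 were tested, and 3 fell and 0 rose (limma adjusted p under 0.05), where 13.5% of all tested miRNAs fell and 1.35% rose. At an unadjusted p under 0.05 there were 5 of 10, against 81 of 222 for all tested miRNAs. miR-107 is also in the list above, as is miR-155. miR-22, known to repress HIF1A in human cells, was at 4.56, 4.91, 4.47 and 4.34 in UUO kidneys 1 to 4, against 5.21, 5.22, 5.07 and 5.23 in control kidneys 1 to 4 (log2 level), a change of -0.61 ± 0.15 (SE, n = 4 each). Its groups did not overlap, as was so for 23.0% of tested miRNAs. miR-429, of the epithelial miR-200 family, changed by -0.60 ± 0.14 (SE, n = 4 each). Without scaling the changes of miR-22 and miR-429 were 0.27 and 0.28, the opposite direction.

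The remaining named regulators were not called. miR-20a, of the miR-17 family, had a log2 change of 0.54 ± 0.30, its relative miR-20b of 0.22 ± 0.24, and miR-322, which in rodents is known to target the HIF ubiquitin ligase scaffold Cul2, of -0.087 ± 0.15 (SE, n = 4 each; limma adjusted p = 0.234, 0.540 and 0.692). The list median was 0.38. Without UUO kidney 2, 6 members rose and 3 fell, where 20.7% of all tested miRNAs rose and 30.2% fell. The count was 0 without any one of UUO kidneys 1 and 3 or control kidneys 1, 3 and 4. In each of these settings the count over all tested miRNAs was 0 too. Without UUO kidney 4 the list count was 1, where 6.31% of all tested miRNAs were called.

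Across 30 other ways of processing, choosing or testing the arrays, the exact permutation test among them, the change of miR-210 passed in none. It was above 0 in 28. The settings that alter only the filter, the block or the test keep the change of 1.11 by construction, as do the series matrix values.

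**Figure D5:**
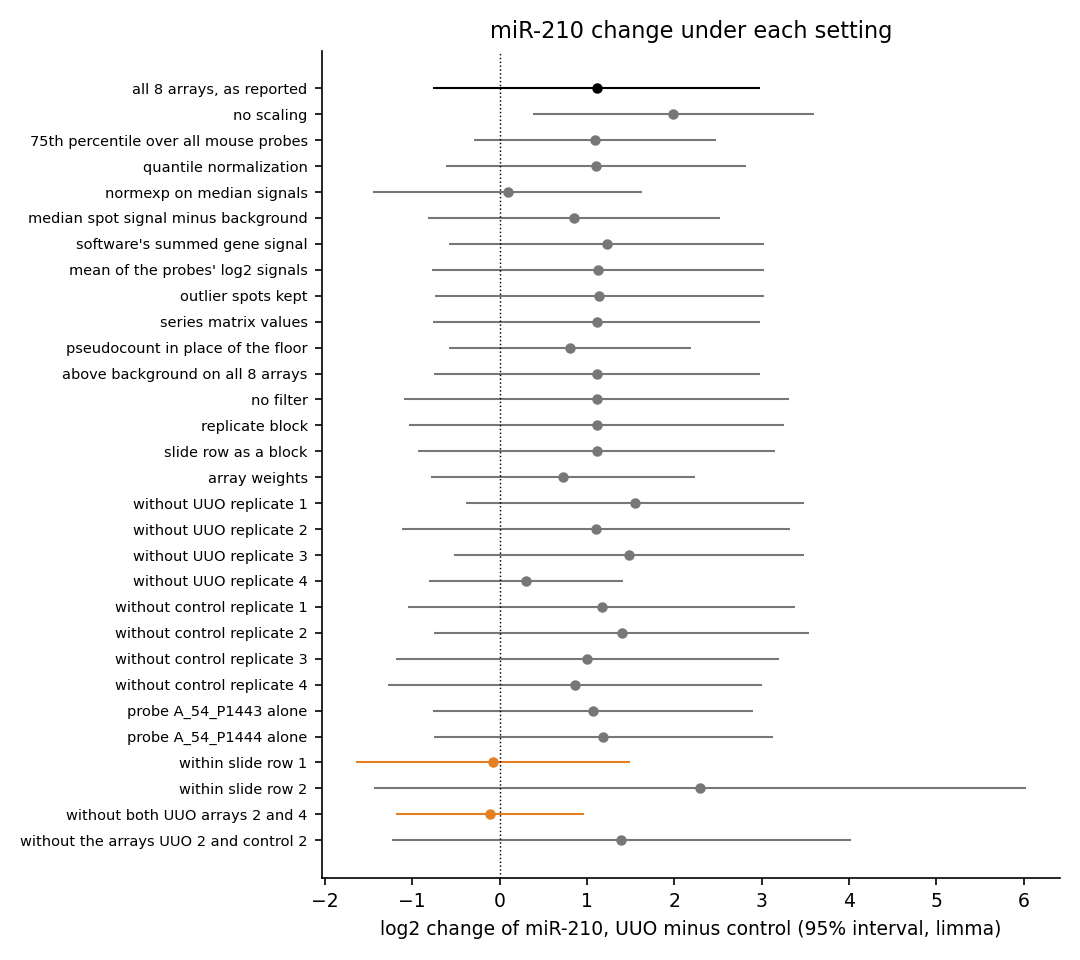
Log2 change of miR-210, UUO minus control, with its 95% limma interval under each setting, the value as reported in black and those below 0 in orange. It is 1.11 as reported, 0.30 without UUO replicate 4 and -0.11 without UUO replicates 2 and 4.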

How the data were processed

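The values were spot intensities from 1-colour Agilent mouse miRNA arrays, made with 100 ng of Cy3-labelled RNA per the labels. Feature Extraction, version 10.7.3.1 per the file headers and 10.1.1 per the submitters' processing notes, had subtracted background and marked outliers. The deposited intensity values were not scaled between arrays, and the authors' series matrix equalled them exactly. Other deposited marks, per the file headers, labelled each spot with 0 or 1 as an outlier, as saturated or as well above background.

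Outlier spots were left out (2.34% to 3.52% of 13000 per array), spots averaged per probe, arrays divided by their 75th percentile over 371 probes above background on all arrays, probes of a miRNA summed, a floor of 0.0213 set and log2 taken. A probe was above background when over 50% of its spots were marked so. The 222 miRNAs above background on all 4 arrays of a group were tested with limma 3.58.1 in R 4.3.3 (Benjamini-Hochberg, called at an adjusted p under 0.05). Permutation tests used scipy 1.17.1. The fit was tested on simulated data. The number of arrays limits precision, and p-values measure only the spread between these samples, which may be technical. Fold changes are relative to the bright miRNAs of an array.

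miR-210 and the lists were chosen with earlier results of these data known. Named miRNAs were miR-210, the 5 most and 3 least correlated with it, and up to 6 members per hypoxia list, called ones first and then by signal. Names are those of the array.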

Additional observations from a re-analysis of the deposited data

Results flagged for a closer look

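In groups of 4 kidneys, the distance of the outermost kidney to its neighbour was divided by the range of the group and set against Dixon's 95% critical value. Of 50 groups examined over 25 measures, 11 passed. Chance passes about 1 in 20 only for independent groups of normal values. Several measures here are of miR-210 itself and others were chosen for likeness to it. The groups are therefore not independent, and the count cannot be judged against that share. For miR-210, UUO kidney 4 passed on the linear scale in its level (0.877), its summed signal before scaling (0.954), the software's gene signal (0.954) and both probes alone (0.863 for A_54_P1443 and 0.903 for A_54_P1444). These 5 describe the same kidney and are not independent. On the log2 scale used for the test miR-210 gave 0.642 and did not pass, and no control kidney passed for miR-210.

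The others, all on the log2 scale, were miRNAs of the hypoxia lists. UUO kidney 2 was low for miR-20a (0.894), miR-20b (0.847) and miR-26a (0.832), UUO kidney 4 was low for miR-429 (0.830), and control kidney 3 was high for miR-21 (0.927) and low for miR-22 (0.875).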

How the results depend on the processing

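Of 30 alternatives, those that alter only the filter, the block or the test keep the change of 1.11 by construction, as do the series matrix values. miR-210 passed the test, limma or the exact permutation test, under none of the 30, and its change was above 0 in 28. It turned to -0.076 within slide row 1 and to -0.11 without both UUO arrays 2 and 4, a setting chosen after seeing the data, as were normexp on medians and leaving out UUO 2 with control 2. The range was -0.11 to 2.30, with 0.30 to 1.55 when single arrays were left out, 0.80 with a pseudocount of 0.1 in place of the floor and 0.092 with normexp on the median signals. The cause of these shifts was not tested. Set against the median change of the tested miRNAs, miR-210 was above 0 in all 30 (0.045 to 2.44).

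Counts of calls were less stable. The 33 calls of all tested miRNAs were 3 without scaling, with quantile normalization and with the summed gene signal, 0 with all mouse probes, normexp or the replicate block, 17 with no filter and 138 with array weights, and 0 to 113 when single arrays were left out. The 3 calls of the hypoxia-associated list were 0 without scaling, with all mouse probes, quantile normalization, normexp, the summed gene signal or the replicate block, 5 with median signals, 6 with the probe mean or the pseudocount, 13 with array weights, and 0 to 13 without single arrays. The 3 calls of the HIF regulator list were 0 without scaling, with all mouse probes, quantile normalization, normexp, the summed gene signal or the replicate block, 9 with array weights, and 0 to 9 without single arrays. Where any of these counts was 0, between 54 and 68 of all tested miRNAs had an unadjusted p under 0.05 by limma.

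Deviations from the group means were correlated across miRNAs between kidneys with the same number. These correlations were -0.35, 0.22, 0.62 and 0.015 for numbers 1 to 4, and 1 of 4 UUO kidneys was closest to its own number. The labels give no pairs, so the numbers were not taken to pair kidneys, but these values cannot exclude pairs. With the replicate block the change of miR-210 was 1.11 (limma adjusted p = 0.385). Normexp on the mean signal was not run because the files used here hold the median only. Dim probes limit the control values of miR-210, the second probe being near background in control kidney 4.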
